A study of Rattus norvegicus with 23 samples.

Results

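The genes described here carry insulin-like growth factor (IGF) and insulin signaling in the rat dorsal hippocampus. They are the ligand Igf1, the receptors Igf1r and Insr, the receptor substrates Irs1 and Irs2, and the binding proteins Igfbp3, Igfbp4, Igfbp5, Igfbp6 and Igfbp7. Members were all probe sets of the array whose only listed gene symbol is 1 of these 10 names. This gave 10 of the 29211 probe sets, for 9 of the 10 genes. Insr has a pair of probe sets, 10756229 and 10756251, and Irs2 is not listed in the table that pairs probe sets with genes and was not analysed here. All 10 member probe sets passed the signal minimum of 40 on at least 4 arrays, and none had a blank value.

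IGF1 binds the IGF1 receptor, and insulin the insulin receptor, and both receptors are tyrosine kinases that phosphorylate IRS adaptor proteins and so start the PI3-kinase and Akt cascade. In tissue fluid most IGF is held by IGF binding proteins, which carry it, keep it from the receptor and release it when proteases cut them. In the hippocampus the pathway is known for its part in neuronal survival, synaptic plasticity and adult neurogenesis.

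RNA from the dorsal hippocampus of 23 male F344 rats was measured with the Rat Gene 1.0 ST array of Affymetrix, with 1 array per rat. Young controls (YC, 6 arrays) were 5 to 6 months old and, by the study's methods, received no injection, while the labels describe them as sham. All 3 aged groups were 21 months old and had adeno-associated virus injected on both sides into CA1, with a transgene under the CaMKII promoter, which drives expression in excitatory neurons. Aged controls (AC, 5 arrays) received the enhanced green fluorescent protein vector (AAV-eGFP), and short-term (ST, 6 arrays) and long-term (LT, 6 arrays) rats received AAV-FKBP1b, which encodes a protein that limits calcium release from ryanodine receptors. The labels put the injection at 18 months in AC, 18 months in ST and 12 months in LT, and the study's design text at 13, 19 and 13 months. Age, surgery and vector therefore cannot be told apart between AC and YC, nor can transgene and titer between FKBP1b rats and AC, because the eGFP vector was given at a higher titer. By the labels LT also differed from AC in injection age and exposure time, and by the design text ST did. These cannot be told apart from the transgene either. ST and LT animals were chosen by the study for FKBP1b levels above the medians of their larger groups. Because the tissue holds many cell types, fewer cells of a type and less RNA per cell cannot be told apart in any value below.

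Values are the deposited signals of the Robust Multiarray Average (RMA) algorithm on a linear scale, and array medians were 134 to 141 in every group. The probe set listed under Fkbp1b averaged 373 in YC, 401 in AC, 694 in ST and 1002 in LT. The lowest ST array, at 427, lay inside the AC range of 364 to 458. The study states that its array lacks a probe set for this gene, and it measured the gene by quantitative PCR. Pyramidal and general neuronal markers were well detected (Camk2a 6330 to 7850, Neurod6 1973 to 2870), but Spink8, a CA1 marker, lay at 31 to 45 on every array. A list score, the mean over a list's genes of the log2 signal minus each gene's mean over 23 arrays, was 2.65 to 3.23 for 12 of 13 choroid plexus genes on 4 arrays (AC replicates 3 and 4, LT replicates 2 and 5), called choroid-high below. It was at most 0.55 on the other arrays. AC replicate 5 stood apart in other lists, with the highest microglia score (0.94, 11 of 12 genes) and the lowest oligodendrocyte score (-0.53, 9 of 10 genes) and hippocampal neuron score (-0.38, 8 of 9 genes) among AC arrays. Its RNA integrity number, 8.9, was also the lowest in AC, where the highest was 9.8. The lowest in LT was 8.9 as well.

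With age, both receptor genes had a probe set that was higher, and 1 binding protein was lower. Igf1r and 1 Insr probe set rose and Igfbp4 fell in AC against YC, by 0.16 to 0.19 on the log2 scale in size, at an adjusted p under 0.05 from limma over 13339 probe sets. These are 3 of 10 member probe sets, while 9.75% of all tested probe sets passed in this comparison (5.56% higher and 4.18% lower, against 2 and 1 members). In the F test across YC, AC, ST and LT, 2 members passed (Igf1r and Igfbp4), and the background was 5.46%. The median log2 fold change of the members in AC against YC was 0.10, with 8 of 10 above 0, beside -0.0062 over all tested probe sets. Without AC replicate 5 that median was 0.044, with 7 of 10 above 0. The split of all calls depended on scaling, with 742 higher and 558 lower as deposited, 507 and 1200 with array medians made equal, and 668 and 668 after quantile normalization. Igf1r, Insr 10756229 and Igfbp4 passed in the same direction under each, and 8 of 10 members stayed above 0. No member passed in ST against AC (background 0%), LT against AC (0.075%), or the mean of both FKBP1b groups against AC (0.03%).

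**Figure D1:**
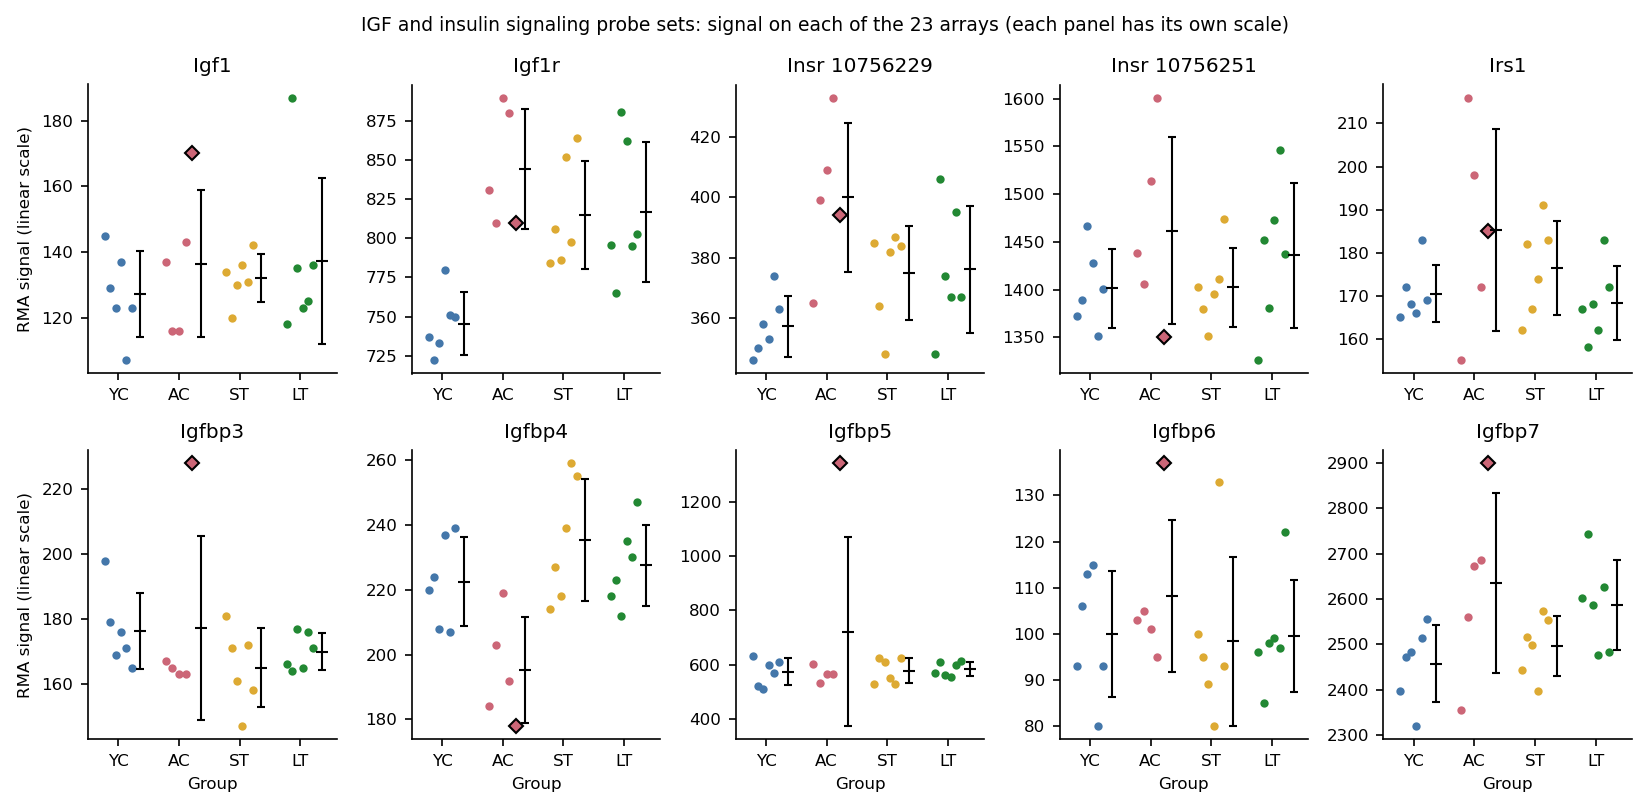
RMA signal (vertical axis, linear, with its own range in each panel) of the 10 member probe sets on each array of YC, AC, ST and LT. Points are arrays, diamonds mark AC replicate 5, and bars are means ± SD. Every AC array of Igf1r lies above every YC array, and AC replicate 5 lies far above the other arrays of Igfbp5, at 1341.

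Igf1, the ligand, did not differ detectably between any groups. Its signal was 107 to 145 in YC (median 126), 116, 116, 137, 143 and 170 in AC, 120 to 142 in ST (median 132.5) and 118 to 187 in LT (median 130). The groups overlapped throughout, and the 2 highest arrays were LT replicate 2 at 187 and AC replicate 5 at 170. The YC arrays averaged 127 ± 13 (SD, n = 6) and the AC arrays 136 ± 22 (SD, n = 5), while ST averaged 132 ± 7.3 (SD, n = 6) and LT 137 ± 25 (SD, n = 6). Igf1 in AC was 0.091 above YC on the log2 scale (95% interval -0.13 to 0.31, adjusted p = 0.614), so a change of up to 0.31 lies inside the interval.

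Igf1r, the receptor tyrosine kinase for IGF1, gave the clearest difference with age. Its signal was 722 to 780 in YC (median 743.5), 810, 810, 831, 880 and 890 in AC, 784 to 864 in ST (median 802) and 765 to 881 in LT (median 799.5). All AC arrays lay above the highest YC array, and of the LT arrays only replicate 2, at 765, lay within the YC range. In AC against YC, 1 of 10 members had groups that did not overlap, and 5.09% of all tested probe sets did. Igf1r rose by 0.18 in AC over YC (standard error 0.039, adjusted p = 0.0080), which is 13.2%. The order of the means was AC at 844 ± 38 (SD, n = 5), LT at 817 ± 45 (SD, n = 6), ST at 815 ± 34 (SD, n = 6) and YC at 746 ± 20 (SD, n = 6). The neighbours AC and LT, and LT and ST, did not differ beyond their spread.

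Against YC the mean of the 3 aged groups was 0.15 higher for Igf1r (standard error 0.031, adjusted p = 0.0062), the only member that passed in that comparison, where the background was 8.55%. ST alone was 0.13 above YC (adjusted p = 0.0535) and LT 0.13 above (adjusted p = 0.0974). No member passed in ST against YC (background 4.15%) or in LT against YC (background 1.03%). At an unadjusted p under 0.05 Igf1r alone passed in each (21.7% and 13.4% of all probe sets). The methods' one-way analysis of variance called no member after Benjamini-Hochberg adjustment, which the study did not use for its calls. Without the 4 choroid-high arrays, which leaves 3 AC arrays, Igf1r in AC was 0.13 above YC (adjusted p = 0.0822), and the remaining AC arrays, at 810, 810 and 831, stayed above every YC array. The mean of the aged groups passed under all 37 alternatives run for it, with an adjusted p of at most 0.023.

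Insr, the insulin receptor, is measured by a pair of probe sets that disagreed on the call. Probe set 10756229 was 346 to 374 in YC (median 355.5), 365, 394, 399, 409 and 433 in AC, 348 to 387 in ST (median 383) and 348 to 406 in LT (median 370.5). On 4 of 5 AC arrays it was above every YC array, with AC replicate 1 inside the YC range. It rose by 0.16 in AC over YC (standard error 0.043, adjusted p = 0.0223). Probe set 10756251 was 1351 to 1467 in YC (median 1395), 1350, 1406, 1438, 1514 and 1601 in AC, 1351 to 1474 in ST (median 1399) and 1326 to 1546 in LT (median 1444.5). Its groups overlapped, though AC replicates 3 and 4, at 1514 and 1601, lay above every YC array. AC was 0.059 above YC (95% interval -0.027 to 0.14, adjusted p = 0.373).

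The Insr call depended on single arrays. It was lost without AC replicate 3 (0.15, adjusted p = 0.0543) or AC replicate 4 (0.13, adjusted p = 0.0700), and without the 4 choroid-high arrays the difference was 0.11 (adjusted p = 0.133, from 3 AC arrays) for 10756229 and -0.0034 for 10756251. Over the 23 arrays, as a description, the choroid plexus score correlated with 10756251 at r = 0.70 and with 10756229 at r = 0.61, and with Igf1r at r = 0.24. The endothelium score correlated with 10756229 at r = 0.77, with 10756251 at 0.44 and with Igf1r at 0.63. The Insr probe sets correlated with each other at r = 0.62, and Igf1r with 10756229 at r = 0.53; the points share group and tissue content.

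Other cell lists also moved with age beside the receptor genes. Microglia scores were -0.02 to 0.94 in AC and -0.35 to -0.27 in YC, endothelium scores (12 of 13 genes) -0.0091 to 0.36 and -0.16 to -0.097, and leptomeninges and fibroblast scores (11 of 12 genes) 0.061 to 0.53 and -0.21 to 0.0051. All 3 lists were higher on every AC array than on every YC array, and no marker was listed at 0. Their part in the rise of Igf1r and Insr was not tested.

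Irs1, the adaptor that links the active receptors to PI3-kinase, was 165 to 183 in YC (median 168.5), 155, 172, 185, 198 and 216 in AC, 162 to 191 in ST (median 178) and 158 to 183 in LT (median 167.5). AC held both the lowest and the highest array of the 23, and its SD of 23 was more than that of YC at 6.6. Irs1 in AC was 0.11 above YC (standard error 0.063, adjusted p = 0.263). Without AC replicate 1, the lowest array, the difference was 0.17 and passed (adjusted p = 0.0446).

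Among the binding proteins the results turn on Igfbp4, which fell in AC against YC, and Igfbp5, which was far up on 1 array, and their promoters are shown for that reason. Both are the 250 bases before the RefSeq gene start in build GRCr8, 5′ to 3′ on the gene's strand. Capitals mark a TATA box (TATAAA), the only motif of the 3 searched that either holds. Igfbp4 lies on the plus strand at chr10:84491221-84491470 and Igfbp5 on the minus strand at chr9:81914188-81914437.
Igfbp4: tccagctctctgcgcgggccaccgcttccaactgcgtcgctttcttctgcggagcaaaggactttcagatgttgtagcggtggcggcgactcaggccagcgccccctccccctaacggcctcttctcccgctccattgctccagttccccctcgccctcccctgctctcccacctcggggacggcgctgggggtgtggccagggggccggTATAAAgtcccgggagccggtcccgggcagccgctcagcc
Igfbp5: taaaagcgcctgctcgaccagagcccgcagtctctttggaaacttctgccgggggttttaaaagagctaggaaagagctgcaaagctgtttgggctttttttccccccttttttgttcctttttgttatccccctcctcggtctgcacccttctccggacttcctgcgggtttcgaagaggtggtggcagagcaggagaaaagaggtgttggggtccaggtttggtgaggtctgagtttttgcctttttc
In the same window, searched on both strands, TATAAA was in 12.9% of 33469 promoters, the Sp1 GC box GGGCGG in 30.5% and the FoxO motif TGTTTAC in 3.21%. Of the 9 member genes with a promoter in the table, Igfbp4 held the TATA box, Igf1r, Irs1 and Igfbp7 a GC box, and Insr and Igfbp6 the FoxO motif. For Igf1, Igf1r, Insr and Igfbp7 the window overlaps the annotated gene, so it is not wholly upstream. The G and C content of the window was 68.8% for Igfbp4 and 51.6% for Igfbp5, beside a median of 51.2% over all promoters. A match is a description of letters and not a site.

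Igfbp4, a binding protein that mostly holds IGF away from its receptor until it is cut by the protease PAPP-A, was lowest in AC. Its signal was 207 to 239 in YC (median 222), 178, 184, 192, 203 and 219 in AC, 214 to 259 in ST (median 233) and 212 to 247 in LT (median 226.5). On 4 of 5 AC arrays it was below every YC, ST and LT array, and AC replicate 3, at 219, lay inside those ranges. The order of the means was ST at 235 ± 19 (SD, n = 6), LT at 228 ± 13 (SD, n = 6), YC at 222 ± 14 (SD, n = 6) and AC at 195 ± 16 (SD, n = 5). The neighbours ST and LT, and LT and YC, did not differ beyond their spread. Igfbp4 fell by 0.19 in AC against YC (standard error 0.060, adjusted p = 0.0468).

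That call for Igfbp4 lay close to the threshold. It passed in 16 of 38 alternatives, and among those that left out 1 array it passed in 9 of 23, with values from -0.23 to -0.16 and an adjusted p of up to 0.0958. The arrays whose omission ended it were YC replicates 1, 2, 4 and 6, AC replicates 1, 2, 4 and 5, ST replicates 2 and 4, and LT replicates 1, 2, 4 and 5. Without the 4 choroid-high arrays Igfbp4 was -0.24 from YC in AC (adjusted p = 0.0662). Over 23 arrays its signal correlated with the oligodendrocyte score at r = 0.62, given as a description. AC replicate 5 held the lowest value of both (178 and -0.53), and r without it is not given.

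Igfbp5, a binding protein that attaches to extracellular matrix, was level on 22 arrays and very high on 1. Its signal was 509 to 631 in YC (median 584.5), 532, 566, 566, 601 and 1341 in AC, 528 to 624 in ST (median 580.5) and 555 to 613 in LT (median 583.5). Only AC replicate 5 lay above 631, at 2.37 times the mean of the other AC arrays. On that array 0.63% of the tested probe sets lay farther, on the log2 scale, from the mean of the other AC arrays. AC was 0.23 above YC with this array (standard error 0.16, adjusted p = 0.344) and -0.015 from YC without it (adjusted p = 0.903).

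The same array held the highest signal of all 23 for Igfbp3, Igfbp6 and Igfbp7 and the lowest for Igfbp4. The share of tested probe sets lying farther from the other AC arrays was 6.72% for Igfbp3 and 7.78% for Igfbp6. It was 34.9% for Igfbp7 and 38.5% for Igfbp4, so many probe sets on this array moved farther than these members. Igfbp3, the main carrier of IGF in blood, was 163, 163, 165, 167 and 228 in AC, beside 165 to 198 in YC (median 173.5), 147 to 181 in ST (median 166) and 164 to 177 in LT (median 168.5). Igfbp6, which prefers IGF2, was 95, 101, 103, 105 and 137 in AC, beside 80 to 115 in YC (median 99.5), 80 to 133 in ST (median 94) and 85 to 122 in LT (median 97.5). Both were therefore raised on AC replicate 5 and overlapping among all other arrays. Igfbp3 in AC was -0.0035 from YC (adjusted p = 0.981) and Igfbp6 0.11 above (adjusted p = 0.571). Without AC replicate 5 the values were -0.098 and 0.025 (adjusted p = 0.207 and 0.911).

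AC replicate 5 was the highest AC array for 5 of 10 member probe sets and the lowest for 2. Over all tested probe sets it was the highest for 27.9% and the lowest for 28.3%, more than any other AC array. The correlation of Igfbp3 with Igfbp5 over 23 arrays was 0.70 and without this array 0.043. Its microglia, oligodendrocyte and hippocampal neuron scores are given above, and their part in the raised binding proteins was not tested.

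Igfbp7, a low-affinity IGF binder made by vessel walls in brain, was 2320 to 2555 in YC (median 2477), 2356, 2561, 2672, 2685 and 2899 in AC, 2398 to 2574 in ST (median 2506.5) and 2477 to 2742 in LT (median 2594.5). On 4 of 5 AC arrays it was above every YC array, and AC replicate 1 lay within the YC range. AC was 0.098 above YC (standard error 0.041, adjusted p = 0.126), and without AC replicate 1 the difference was 0.14 and passed (adjusted p = 0.0183). Over 23 arrays, as a description, Igfbp7 correlated with the microglia score at r = 0.69, the leptomeninges and fibroblast score at 0.68 and the endothelium score at 0.64. AC replicate 5 held the highest Igfbp7 signal and microglia score (2899 and 0.94), and r without it is not given.

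**Figure D2:**
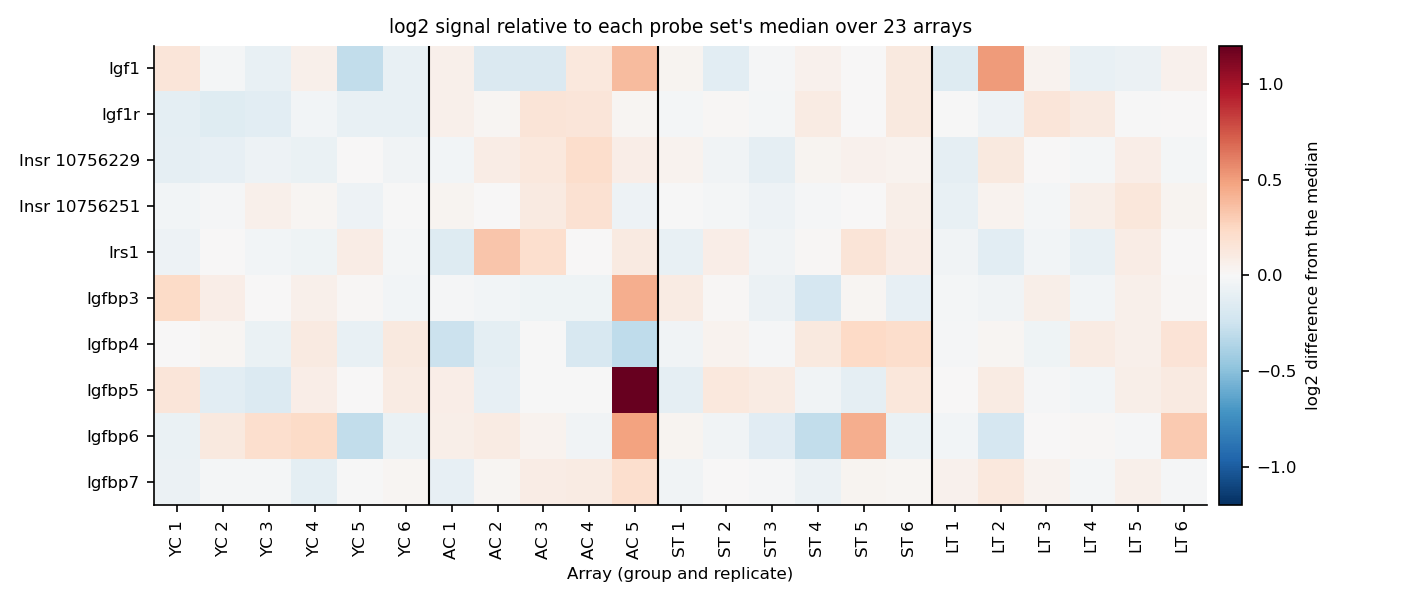
Colour shows the log2 signal of each member probe set (rows) on each of the 23 arrays (columns, by group and replicate) relative to that probe set's median over the arrays. AC replicate 5 is the reddest column for Igfbp3, Igfbp5, Igfbp6 and Igfbp7, and the YC columns of Igf1r are blue.

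FKBP1b expression was compared with the eGFP vector in aged rats to see which differences with age it shifted. For Igfbp4 both FKBP1b groups lay above AC, by 0.27 in ST (standard error 0.060, adjusted p = 0.208) and 0.22 in LT (adjusted p = 0.138), and their mean by 0.25 (standard error 0.052, adjusted p = 0.111). The 95% intervals were 0.15 to 0.39 in ST and 0.099 to 0.35 in LT. The unadjusted p from limma was 0.00017 in ST and 0.0012 in LT, beside 0.0042 for the fall in AC against YC. All 6 ST arrays and all 6 LT arrays were above 4 of the 5 AC arrays. Igfbp4 passed in none of 38 alternatives for ST, LT or their mean against AC. Across them the adjusted p went no lower than 0.0563, and the log2 fold change of the mean lay between 0.21 and 0.31.

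For the receptors the estimates lay below 0, without passing. Igf1r was -0.051 from AC in ST (95% interval -0.13 to 0.030, adjusted p = 0.707) and -0.048 in LT (95% interval -0.13 to 0.033, adjusted p = 0.617). Insr 10756229 was -0.092 from AC in ST (adjusted p = 0.492) and -0.088 in LT (adjusted p = 0.397). Irs1 was -0.13 from AC in LT (standard error 0.063, adjusted p = 0.396). Among the choroid-high arrays, AC replicates 3 and 4 were the highest in AC for Igf1r (890 and 880). LT replicates 2 and 5 were the lowest in LT (765 and 795), and the cause was not tested. Without those 4 arrays Igf1r was -0.0045 from AC in ST, 0.031 in LT and 0.013 in their mean. Insr 10756251 lay at 0.0044 in ST and 0.0058 in LT without them, and 10756229 at -0.042 and -0.084.

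The member median was -0.068 in ST against AC, with 1 of 10 above 0, and -0.048 in LT against AC, with 2 of 10 above 0, beside medians over all tested probe sets of 0.0100 and -0.0031. These comparisons share the AC arrays with AC against YC, so a high or low AC array moves both. Without AC replicate 5, 4 of 10 were above 0 in ST (Igf1, Igfbp3, Igfbp4 and Igfbp5) and 5 of 10 in LT (Igfbp7 as well), with medians of -0.048 and -0.0089. Without the 4 choroid-high arrays 2 of 10 were above 0 in ST and 3 of 10 in LT, with medians of -0.058 and -0.10. At an unadjusted p under 0.05 there were 2 members in ST against AC (Insr 10756229 and Igfbp4; 9.82% of all probe sets), 1 in LT against AC (Igfbp4; 12.6%) and 2 in their mean (10.5%). By the methods' one-way analysis of variance none passed after Benjamini-Hochberg adjustment. The study itself called genes at an unadjusted p of at most 0.05 in that analysis and in its pairwise tests.

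LT and ST themselves could not be separated for any member. No member passed in LT against ST (background 0.0075%), none at an unadjusted p under 0.05 (12.4% of all probe sets), and none by the one-way analysis after adjustment. The differences ranged from -0.068 for Irs1 to 0.050 for Igfbp7. LT and ST differed in injection age, exposure time and mean Fkbp1b signal (1002 and 694), which cannot be told apart in this comparison.

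**Figure D3:**
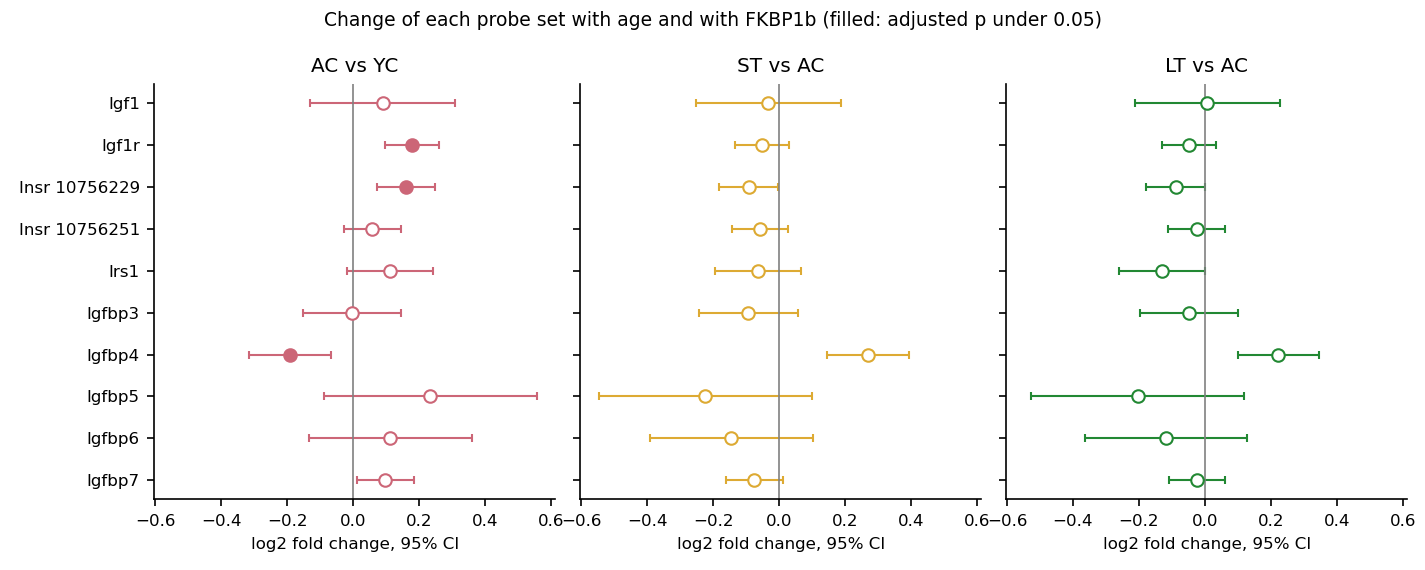
Log2 fold change with its 95% interval (horizontal axis) of each member probe set in AC against YC, ST against AC and LT against AC. Filled circles are those with an adjusted p under 0.05, which are Igf1r, Insr 10756229 and Igfbp4 in AC against YC, and the 2 panels of FKBP1b groups hold none. Igfbp4 lies at -0.19 in the first panel and at 0.27 and 0.22 in the others.

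The rest of the pathway was read from 4 lists of other genes, of which 48 of 53 were tested. In AC against YC 3 passed, all higher, and 45 did not, beside the background of 9.75%. Lrp1, a large endocytic receptor that takes up several ligands including IGF binding protein complexes, was 2047 to 2133 in YC (median 2097) and 2208 to 2348 in AC (median 2314), with no overlap. It rose by 0.12 (standard error 0.023, adjusted p = 0.0032) and kept the call in all 38 alternatives. Shc1, an adaptor that couples the receptors to Ras, rose by 0.27 (standard error 0.056, adjusted p = 0.0060), from 157 to 199 in YC to 192 to 250 in AC, and was the largest of the called changes in these lists. With only the arrays of AC and YC fitted, Shc1 did not pass (adjusted p = 0.0575).

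Phlpp1, a phosphatase that removes the activating phosphate from Akt, rose by 0.11 in AC over YC (standard error 0.034, adjusted p = 0.0390), from 2116 to 2191 in YC to 2163 to 2458 in AC. Its call was lost on leaving out YC replicate 1, 2, 3, 5 or 6 or AC replicate 1, 2 or 3, where the adjusted p reached 0.100 and the values ran from 0.090 to 0.11. With array medians made equal it was 0.081 and did not pass (adjusted p = 0.145), nor did it with only the groups compared (adjusted p = 0.102) or without the 4 choroid-high arrays (0.11, adjusted p = 0.131). Ptpn11, the phosphatase SHP2 that binds activated receptors and adaptors, was 0.15 above YC in AC without passing (adjusted p = 0.0757) and passed in the mean of the aged groups (0.15, adjusted p = 0.0291). In AC against YC it did pass without AC replicate 5 (0.22, adjusted p = 0.0032), with array weights (adjusted p = 0.0048) and with RNA integrity number as a covariate (adjusted p = 0.0201). That mean was also higher for Lrp1 (0.087), Shc1 (0.22) and Phlpp1 (0.11), so 4 of 48 passed, beside 8.55% of all tested probe sets. The call of Ptpn11 in that mean was lost without YC replicate 1, 2, 4 or 6, at an adjusted p of up to 0.0708, without the 4 choroid-high arrays (0.13, adjusted p = 0.0628) and with the choroid plexus score as a covariate (adjusted p = 0.0602). That of Phlpp1 was lost with array medians made equal (adjusted p = 0.0552). In ST against YC, Shc1 (0.24, adjusted p = 0.0148) and Phlpp1 (0.12, adjusted p = 0.0314) passed. These are 2 of 48, beside 4.15% of all tested probe sets. The call of Phlpp1 there was lost without YC replicate 2, 3, 5 or 6 or ST replicate 2, 4 or 6, at an adjusted p of up to 0.0829. It was also lost with array medians made equal (0.098, adjusted p = 0.115) or quantile normalization (adjusted p = 0.0509).

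By list, 1 of 9 regulators of IGF release and clearance passed in AC against YC (Lrp1; median 0.10), 1 of 16 adaptors and brakes (Shc1; median -0.0072) and 1 of 14 genes of the PI3-kinase, Akt and FoxO list (Phlpp1; median 0.033). None of the 9 other ligands, receptors and carriers passed, and the background in this comparison was 9.75%. In ST against AC, LT against AC and their mean, 0 of 48 passed, beside backgrounds of 0%, 0.075% and 0.03%.

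Igf2, the other IGF, and Igfbp2, the binding protein next to Igfbp5 in the genome, are both expressed by choroid plexus epithelium. They were high on the 4 arrays with a high choroid plexus score. Igf2 was 830 and 1071 on AC replicates 3 and 4 and 734 and 847 on LT replicates 2 and 5, and 121 to 200 on all others. Igfbp2 was 735, 1228, 921 and 876 on those arrays and 118 to 275 on the others. Over 23 arrays Igf2 followed the choroid plexus score at r = 0.99 and Igfbp2 at r = 0.96, as a description. Igf2 was 1.03 above YC in AC with these arrays (adjusted p = 0.195) and -0.051 from YC without them (adjusted p = 0.812), and Igfbp2 1.29 (adjusted p = 0.103) and 0.39 (adjusted p = 0.183).

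**Figure D4:**
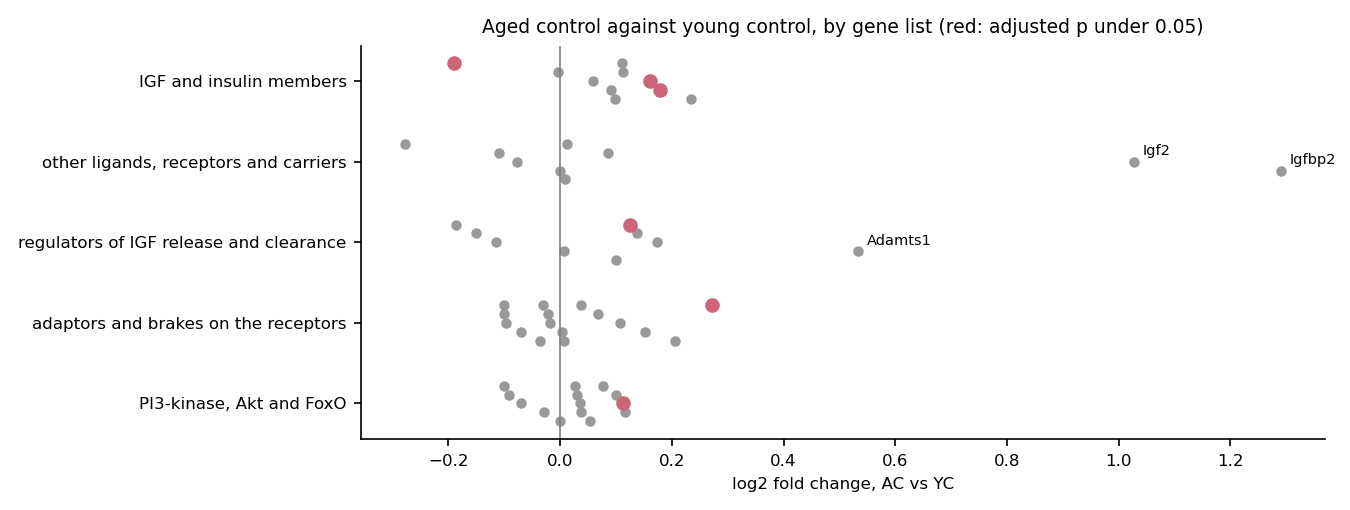
Log2 fold change in AC against YC (horizontal axis) of the 10 members and of the genes of the 4 pathway lists (rows), 1 point for each probe set, with red for an adjusted p under 0.05. Igf2 and Igfbp2 lie farthest to the right, at 1.03 and 1.29, without passing.

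The genes whose signal was most like that of Igf1r over 23 arrays, by Pearson's r of log2 signal, were Aff1 (r = 0.85), Ablim1 (0.83) and Shank3 (0.82). For Igfbp4 they were Tcf19 (0.76), Mamdc2 (0.73) and Cftr (0.73). For Igfbp5, chosen after its values were seen, the closest was Cxcl13 at r = 0.93, which was 0.37 without AC replicate 5. These are the highest of 13339 probe sets, over arrays that share group and tissue content, and are given as a description only.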

How the data were processed

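RNA of 23 rats was measured with the Rat Gene 1.0 ST array of Affymetrix. The authors made the deposited signal intensities, 1 for each probe set, with the Robust Multiarray Average (RMA) algorithm and Partek (versions not given in the sources used here), and they are unlogged and rounded. Among 29211 probe sets 758 values were blank and stayed missing. Groups were taken from the labels. Log2 signals of the 13339 probe sets that carry a single gene symbol and reach 40 on at least 4 arrays were fitted in limma 3.58.1 (R 4.3.3), with 1 mean for each of 4 groups. Benjamini-Hochberg adjustment ran over all of these, with a threshold of 0.05. The model was tested on simulated data. P-values measure the spread between single animals, and 23 arrays limit the precision. Promoters came from RefSeq (GRCr8). The methods' one-way analysis of variance (Fisher's LSD, unlogged signal) was an alternative, with Benjamini-Hochberg adjustment added. The study itself called genes at an unadjusted p of at most 0.05. All members are named, with those pathway genes that passed in any comparison. Members and lists were chosen with earlier results of these data known. Alternatives included scaling, filters, array weights, RNA integrity number (RIN), replicate number, choroid plexus score and leaving out each array; leaving out arrays with a choroid plexus score over 1 was added after seeing the data. No arrays were identical.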

Additional observations from a re-analysis of the deposited data

Results flagged for a closer look

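Of 40 groups of arrays (10 member probe sets in 4 groups), 4 held 1 array far from the rest of its group by Dixon's ratio. The nominal chance rate for this is about 1 in 20, and no share over all tested probe sets is given. AC replicate 5 was such an array for Igfbp5 (1341, next 601), Igfbp3 (228, next 167) and Igfbp6 (137, next 105). LT replicate 2 was such an array for Igf1 (187, next 136), and it is also 1 of the arrays with a high choroid plexus score (2.65). Flags on the same array are not independent of each other. Over all tested probe sets AC replicate 5 was the highest AC array for 27.9% and the lowest for 28.3%. The causes were not tested.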

How the results depend on the processing

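Each result was recomputed under 38 alternatives, of which 23 left out 1 array. No called value changed direction. In the F test, 2 members passed, and 1 did with array medians made equal, quantile normalization (Igfbp4 in both), the one-way analysis on unlogged signal, the replicate block, and without the 5 arrays with a choroid plexus score over 0.5 (LT replicate 1 beside the 4 choroid-high arrays) or the 4 over 1 (Igf1r in all of these). In AC against YC, 3 passed, and 1 did (Igf1r) with only the groups compared or with the choroid plexus score as a covariate, and 0 without those 5 or 4 arrays, which leaves 3 AC arrays. There, 2 passed and Igfbp4 was lost with the one-way analysis (adjusted p = 0.0728), array weights (0.147) or no signal filter (0.0544). In ST against YC, 0 passed, and 1 did (Igf1r) with a variance trend and robust moderation, array weights, a minimum signal of 100, the replicate block, only the groups compared, and without those 5 or 4 arrays. With array weights, 2 passed in the mean of AC, ST and LT against YC instead of 1, and 1 instead of 0 in LT against YC. Leaving out 1 array gave 0 to 2 members in the F test, 1 to 4 in AC against YC, 1 to 2 in the mean of the aged groups against YC, 0 to 1 in ST against YC, and 0 in the other comparisons. The F test of Igf1r was lost without YC replicate 1, 2, 3, 5 or 6 or AC replicate 3 (adjusted p up to 0.0752), and that of Igfbp4 without YC replicate 2, AC replicate 1, 4 or 5, or ST replicate 4 or 6 (up to 0.0696). Without AC replicate 1, Insr 10756229 passed the F test (adjusted p = 0.0308), and its mean of the aged groups passed without AC replicate 1, ST replicate 3 or LT replicate 1. Without AC replicate 5, ST replicate 1 or LT replicate 2 or 3, Igf1r passed in ST against YC. With replicate number as a replicate block the AC against YC count was 2, since Igfbp4 was lost (-0.17, adjusted p = 0.0697). The numbers do not pair the rats: same-numbered arrays of different groups deviated together at a median r of 0.00012 over 33 pairs, and 2 of 23 arrays correlated best with their own number. Setting values over 2 SD from the group mean to missing changed no member value, but in a group of 5 arrays no value can lie that far out, so this says nothing about AC. The fit on the groups compared could not be run apart for the F test and the mean of the aged groups, which use every array. Over all probe sets the calls in AC against YC numbered 1300, and 385 with only the groups compared to 2355 with all probe sets past the signal minimum, or 796 (without AC replicate 3) to 1868 (without AC replicate 1) on leaving out an array. In the F test they numbered 728, and 316 without the 5 arrays over 0.5 to 1932 with array weights. No member passed in the FKBP1b comparisons under any of these. Igfbp6, at 80 to 137, had the signals nearest the minimum of 40.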
